A study of Bos taurus with 6 samples.

Results

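Genes for membrane transporters and ion channels were examined in MAC-T cells, an established line of bovine mammary epithelial cells, after transfection with an inhibitor of the microRNA miR-375. A gene was a member if its symbol, taken from the study's general list of genes or from its list of genes chosen for their difference between the groups, began with SLC, ABC, KCN, CACN, CLCN, CLIC, AQP, GABR, TRPC, TRPM, TRPV, ATP1, ATP2, ATP6, ATP8 or ATP11, and if its identifier was in the count files. SLC7A11 and AQP9 were left out. The rule found 66 genes of 29154, and 1410 identifiers in all could be paired with a symbol. The general list was read for its first 1997 rows, so members of these families that stand elsewhere are not analysed here. Of the 66 members, 64 came from the general list, and SLC24A1 and KCNJ10 came only from the list of genes chosen for their difference, so their contrast is a description with no test.

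Transporters move ions, nutrients, lipids and metabolites across membranes, while channels open a pore through which ions flow down their gradient. ATP-driven pumps (the P-type, V-type and ABC families) spend ATP to move a substrate uphill, and the solute carriers (SLC) exchange or cotransport substrates or let them pass downhill. In mammary epithelium such proteins take up the glucose and amino acids from which milk is made, bring UDP-galactose into the Golgi for lactose, and move calcium into the secretory pathway.

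The 2 groups of 3 libraries each were cells given 100 nM miR-375 inhibitor and cells given 100 nM inhibitor NC, the negative control that the labels call NC inhibitor, all collected 48 h after transfection in 6-well plates. All 6 libraries came from 1 cell line, in medium with serum, so both groups share the line and the transfection. The transfection was transient, and miR-375 itself was not measured in these mRNA libraries. The experiment is described as done in triplicate, and nothing more says how separate the replicate cultures were. The p-values therefore concern the spread between these samples only. In the edgeR test used below, that spread was estimated mostly across all genes (51.4 prior degrees of freedom), and less from each gene's own 6 libraries.

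Total counts on genes ran from 14479278 to 16324556 per library, so that 3 counts, used as the floor, stood for 0.184 to 0.207 counts per 1000000 counts on genes (CPM). Of 8 epithelial marker genes, 3 had at least 10 counts in each library (CLDN1, CXADR and LIPH), 2 were low and 3 were at the floor, with TMPRSS2 and ILDR1 at 0 counts in all 6 libraries. Keratins were not analysed here. Of 6 fibroblast or matrix genes, 4 had at least 10 counts in each library, COL6A1, COL6A2, CCDC80 and FSTL1, while none of 7 leukocyte genes had and CD86 was at 0. Among 6 neuron and glia genes, SYN1 had at least 10 counts in each library, and OLIG2 was at 0. The summed level of the epithelial list ran from 81.6 to 87.8 CPM with the inhibitor NC and from 71.0 to 79.2 CPM with the miR-375 inhibitor, and that of the fibroblast or matrix list from 2024 to 2091 CPM and from 2097 to 2203 CPM. The leukocyte list summed to between 0.343 and 0.680 CPM and between 0.431 and 0.795 CPM, and the neuron and glia list to between 1.73 and 2.88 CPM and between 1.89 and 2.72 CPM. These sums used library sizes adjusted by TMM (described below), and on that scale the epithelial and matrix sums did not overlap between the groups. With unadjusted totals, the matrix sum of inhibitor NC replicate 2 lay above that of miR-375 inhibitor replicate 3. The separation of the matrix sums therefore rests on the TMM scaling. The part of either list in the results for the members was not tested. CXADR made up most of the epithelial sum, with group means of 70.2 CPM with the inhibitor NC and 64.5 CPM with the miR-375 inhibitor. The groups of CXADR itself overlapped. All 6 libraries came from 1 cell line, so these sums are not read as shares of cell types. In bulk samples, fewer cells of a type and less RNA per cell cannot be told apart.

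Of the 66 members, 35 were expressed, meaning at least 10 counts in each of the 6 libraries, 22 were at the floor, with 3 counts or fewer in each library, and 9 were low, between these classes. With 5 or 20 counts as the limit, 38 or 30 members would be expressed. Among the 64 from the general list, 35 were expressed (54.7%), beside 50.8% of the 1375 identifiers with a symbol in that list and 46.1% of all genes. No count at all was found for 15 of the 64 (23.4%), beside 29.7% and 28.8%. Together the members took 0.167% to 0.184% of the counts of a library. The 3 inhibitor NC libraries had 0.176%, 0.178% and 0.184%, and the 3 miR-375 inhibitor libraries 0.176%, 0.167% and 0.183%, so the groups overlapped. Between 45 and 48 members had a count in each library.

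**Figure D1:**
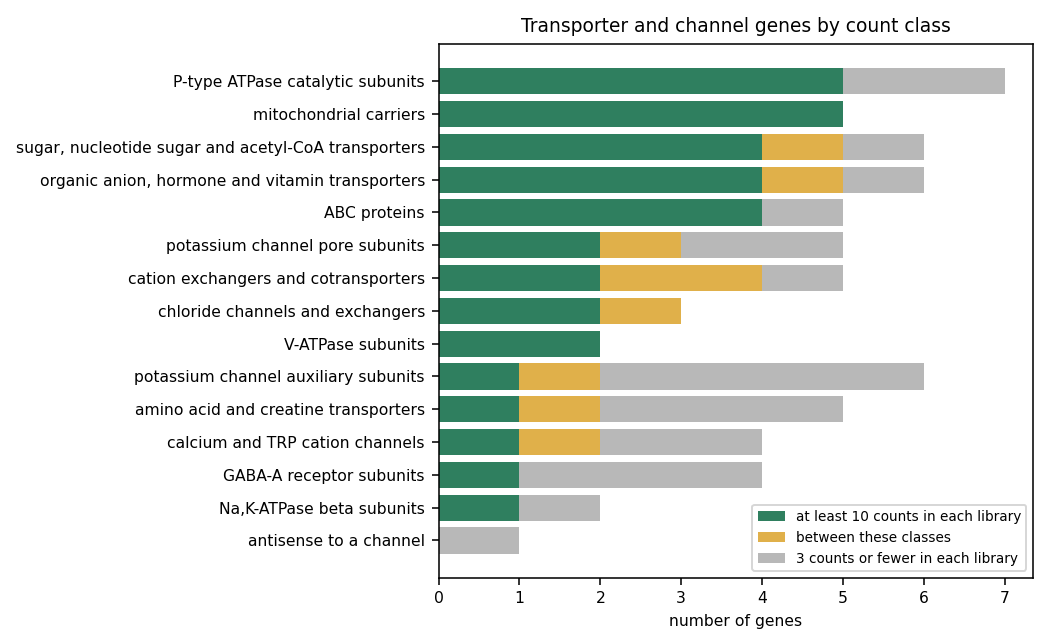
Number of member genes (x axis) in each role (y axis), stacked by count class: at least 10 counts in each of the 6 libraries, 3 counts or fewer in each, or between these. All 5 mitochondrial carriers and both V-ATPase subunits were expressed, while 4 of 6 potassium channel auxiliary subunits and 3 of 4 GABA-A receptor subunits were at the floor.

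The classes differed by role. Several groups of carriers and pumps were mostly expressed, with 5 of 5 mitochondrial carriers, both V-ATPase subunits, 5 of 7 P-type ATPase catalytic subunits, 4 of 5 ABC proteins and 4 of 6 transporters of sugars, nucleotide sugars and acetyl-CoA. Others were not, with 1 of 5 transporters of amino acids and creatine, 2 of 5 cation exchangers and cotransporters and 1 of 2 genes of the sodium pump beta subunit family. Of the channels, the expressed genes were 2 of 5 pore subunits and 1 of 6 auxiliary subunits of potassium channels, 1 of 4 calcium and TRP channels, 1 of 4 GABA-A receptor subunits and 2 of 3 chloride channels and exchangers. These are counts of small groups, with no test. Counts also rise with the length of a transcript, and no lengths were at hand, so the counts below are not compared between genes as levels.

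Among the P-type ATPases, pumps that are phosphorylated on an aspartate during transport, ATP13A3, a polyamine transporter, had 3149, 3756 and 4217 counts with the inhibitor NC and 3453, 2751 and 3780 with the miR-375 inhibitor. ATP2C1, which carries calcium and manganese into the Golgi, had 2322, 2660 and 2535 counts against 2199, 2130 and 2515. ATP11B, a phospholipid flippase, had 1708, 1911 and 2013 counts against 1596, 1410 and 1887. For all 3 pumps the lowest of the 6 raw counts was in the same library, miR-375 inhibitor replicate 2. That library was also the lowest for each pump after scaling for library size, at 2890, 2238 and 1481. ATP13A4 had 64 to 90 counts. Its relative ATP13A5, the next gene in the RefSeq gene order, and ATP2B3, a calcium pump of the plasma membrane, were at the floor. The beta subunit ATP1B3, which partners the catalytic subunit of the sodium pump, had 1320, 1521 and 1415 counts against 1538, 1365 and 1540, and ATP1B4 was at the floor.

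The V-ATPase acidifies endosomes, lysosomes and secretory vesicles. Its catalytic subunit ATP6V1A had 2322, 2588 and 2790 counts with the inhibitor NC and 2511, 2387 and 2966 with the miR-375 inhibitor, with overlap. The accessory subunit ATP6AP1 had 1166, 1270 and 1249 counts against 1374, 1259 and 1303, and after scaling for library size the groups did not overlap.

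In the ABC family, ABCC5, an exporter of organic anions and cyclic nucleotides, had 905, 1067 and 1121 counts against 977, 926 and 1081. ABCF3, a member of the family without membrane spans, had 484 to 608 counts. No count was found for ABCG1, a cholesterol exporter, in any library.

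Mitochondrial carriers exchange metabolites across the inner membrane. SLC25A5, an ADP/ATP carrier, had the most counts of any member, with 3710, 4089 and 4217 with the inhibitor NC and 4169, 3987 and 4542 with the miR-375 inhibitor. It has closely similar family members and processed copies, so its counts are uncertain where the counting could split reads between them. SLC25A36, a carrier of pyrimidine nucleotides, had 1358, 1779 and 1724 counts against 1435, 1259 and 1593. SLC25A43, the next gene to SLC25A5 in the RefSeq order, had 94 to 124 counts, SLC25A14 had 78 to 97 and SLC25A53 had 16 to 32.

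Of the transporters of sugars and activated groups, SLC33A1, which moves acetyl-CoA into the endoplasmic reticulum, had 1467, 1536 and 1628 counts against 1477, 1352 and 1759. SLC35A5, of the nucleotide sugar transporter family, had 1057, 1146 and 1170 counts against 1100, 1005 and 1268. SLC35A2, the UDP-galactose transporter of the Golgi, had 363 to 514 counts, and SLC37A1, of the sugar phosphate exchangers, had 546 to 739. SLC2A2, a glucose transporter best known in liver, was at the floor, with 1, 2 and 1 counts against 3, 1 and 0. SLC35G2 was low, with 0, 3 and 4 counts against 9, 6 and 3, and its groups overlapped.

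Organic anion, hormone and vitamin transporters carry signalling molecules and cofactors. SLCO2A1, which takes up prostaglandins, had 553, 541 and 479 counts with the inhibitor NC and 398, 467 and 462 with the miR-375 inhibitor. SLC10A3, of the bile acid transporter family, had 318 to 407 counts, SLC49A4 had 233 to 266, and SLC19A1, the reduced folate carrier, had 197 to 300. SLC51A, a subunit of an organic solute transporter, was low.

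Transporters of amino acids and creatine were mostly not expressed. SLC6A8, the creatine transporter, had 63, 69 and 91 counts against 73, 78 and 55. SLC6A14, which takes up neutral and cationic amino acids, stood just below the limit, with 11, 5 and 6 counts against 7, 9 and 7. SLC38A5 had 2, 0 and 1 counts against 0 in each miR-375 inhibitor library, and SLC7A3 and SLC7A14 had 0 in all 6. The result concerns these 5 genes, since SLC7A11 was left out by the rule.

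The cation exchangers and cotransporters had low counts. SLC9A9, a sodium/proton exchanger of endosomes, had 32, 25 and 26 counts with the inhibitor NC and 17, 19 and 18 with the miR-375 inhibitor, and the groups did not overlap. SLC9C1, a relative best known in sperm, had 13 to 29 counts. SLC12A8 was low and SLC9A7 had no count.

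Potassium channels set the resting potential and shape electrical activity. KCNH8, a voltage-gated pore subunit, had 40, 29 and 27 counts against 28, 41 and 40, and KCND1, another, had 29, 25 and 12 against 23, 31 and 17. Both genes showed overlap between the groups. Of the auxiliary subunits, KCNMB3, a beta subunit of the calcium-activated channel, had 34, 30 and 48 counts against 47, 36 and 41. KCNAB1 was low, and KCNMB2, KCNE1, KCNE2 and KCNE5 had 0 counts in all 6 libraries. The inward rectifier genes KCNJ6 and KCNJ15, neighbours in the RefSeq order, also had 0.

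TRPC1, a subunit of cation channels linked to calcium entry after receptor activation, was the expressed gene among the calcium and TRP channels, with 287, 339 and 327 counts with the inhibitor NC and 221, 233 and 276 with the miR-375 inhibitor. Each miR-375 inhibitor library was below each inhibitor NC library. CACNA1F, a pore subunit of L-type calcium channels known from the retina, was low, with 0 to 4 counts. TRPC5, TRPM2 and TRPC5OS, the antisense gene beside TRPC5, had 0 counts in every library.

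Chloride-conducting proteins and GABA-A receptor subunits gave few counts. CLCN5, a chloride/proton exchanger of endosomes, had 30, 33 and 41 counts against 36, 26 and 61, and CLCN2, a chloride channel of the plasma membrane, had 16, 21 and 11 against 12, 20 and 20. CLIC2 was low, with 7, 10 and 7 against 14, 6 and 8. CLCN2, with a lowest count of 11, and KCND1, with 12, were the members nearest above the limit for expressed, and CLIC2, with 6, and SLC6A14 and SLC24A1, both with 5, were nearest below it. GABRE, the epsilon subunit of the GABA-A receptor, had 89, 133 and 128 counts against 121, 85 and 123. GABRA3, with 1 coding gene between it and GABRE in the RefSeq order, and GABRQ, the next gene after GABRA3, had 0 counts. GABRR3 was at the floor.

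**Figure D2:**
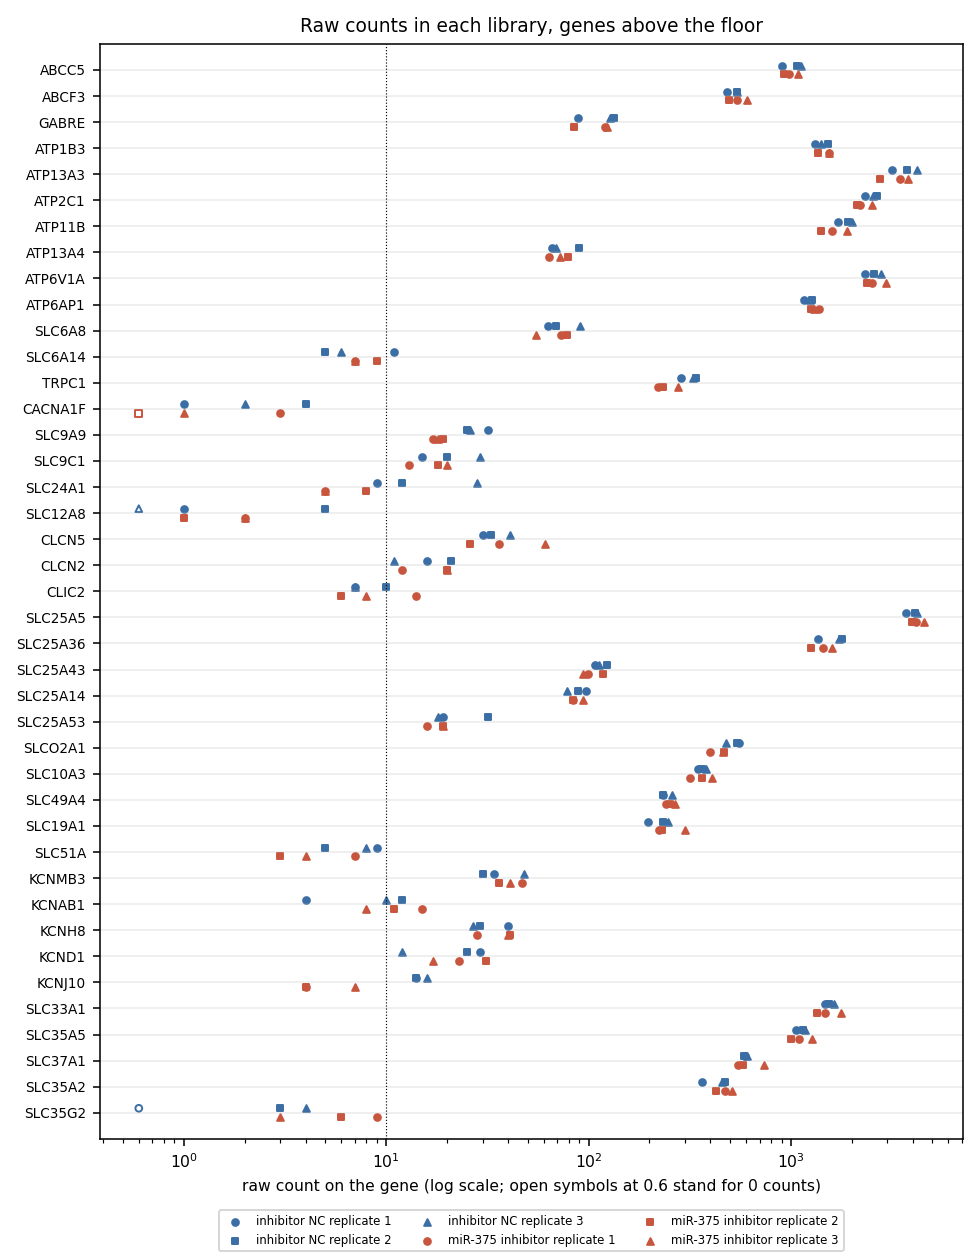
Raw counts of members above the floor (y axis) in each of the 6 libraries on a log scale (x axis), with inhibitor NC in blue and miR-375 inhibitor in red, 1 marker shape per replicate number, and open symbols for 0 counts. The dotted line is at 10 counts. SLC25A5 lies between 3710 and 4542 counts, and for most genes the groups overlap.

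The main comparison asked which of these genes differed between cells with the miR-375 inhibitor and cells with the inhibitor NC. By edgeR's quasi-likelihood F test, with p-values adjusted by Benjamini-Hochberg over 20755 genes (those with a count in at least 1 library), 0 of the 49 testable members from the general list had an adjusted p under 0.05, beside 1.69% of all genes tested. DESeq2 gave 17 members an adjusted p, and 0 of them passed. TRPC1, which had the smallest edgeR p, was not among the 17 and so could not be called there (DESeq2 unadjusted p 0.0052). At an unadjusted p under 0.05, edgeR found 7 of the 49 (14.3%), beside 10.6% of all genes tested, and DESeq2 found 4. All 7 were among the 35 expressed members (20%), beside 15.0% of all genes expressed by the same limit. Of the 7, 2 were higher in the miR-375 inhibitor cells, SLC25A5 among them, and 5 were lower, TRPC1, ATP11B, SLCO2A1, SLC25A36 and ATP13A3, where 4.67% and 5.96% of all genes tested were higher and lower at that limit. The scaled groups did not overlap for 8 of the 49 members (16.3%), beside 14.1% of all genes tested. The 4 that were higher, ATP6AP1 and SLC25A5 among them, made up 8.16% of the 49 beside 7.0%, and the 4 that were lower, ATP2C1, ATP11B, TRPC1 and SLC9A9, 8.16% beside 7.09%. For any gene taken alone, an exact two-sided permutation test of 3 against 3 libraries cannot give a p below 0.1.

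Fold changes were small. Over the 35 expressed members the median log2 fold change (miR-375 inhibitor minus inhibitor NC) was 0.03, with 20 above 0 and 15 below, beside -0.001 over the 13449 genes expressed by the same limit. The median size of the log2 fold change, without its sign, was 0.12 for the members and 0.09 for those genes, and the largest among the members was 0.59, for SLC9A9. Leaving out 1 library at a time moved the number above 0 between 17 and 21, and 23 of the 35 kept their sign in all 6 such fits. The 95% interval of the fold change included 0 for 28 of the 35. For 17 members it lay within -20% to 25%, and for 13 of these it also included 0.

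**Figure D3:**
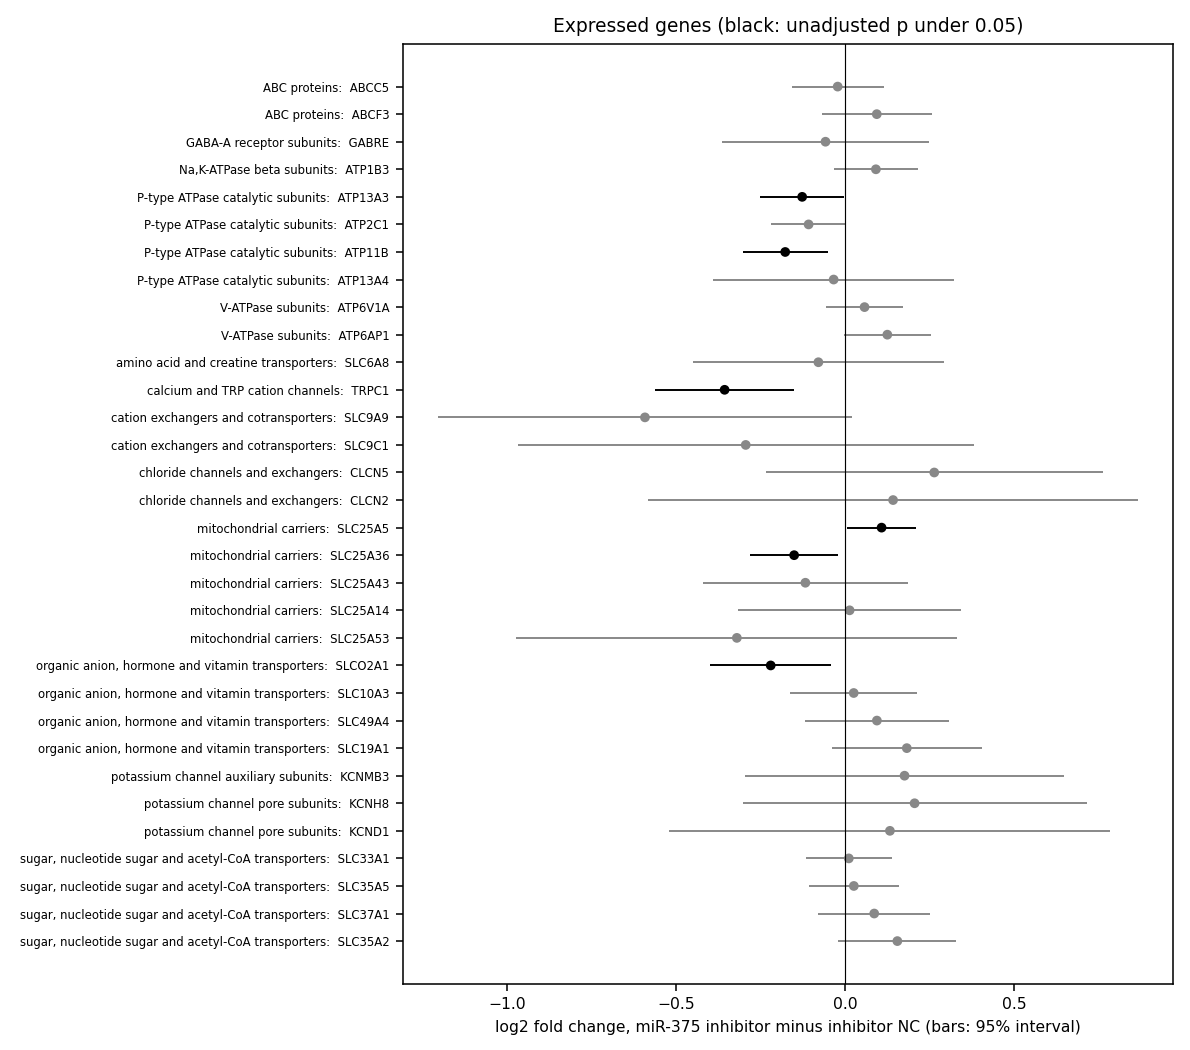
Log2 fold change (x axis, miR-375 inhibitor minus inhibitor NC) of 32 expressed members (y axis, by role), with points for the edgeR estimate and bars for its 95% interval, black where the unadjusted p is under 0.05. The bars of the 4 P-type ATPases shown are centred below 0, and 26 of the 32 bars include 0.

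TRPC1 (ENSBTAG00000002232) had the smallest p. Scaled for library size, its counts were 306, 323 and 314 with the inhibitor NC and 228, 245 and 264 with the miR-375 inhibitor, or 314 ± 8.66 and 245 ± 18.1 (SD, n = 3). The 3 treated libraries all lay below the 3 controls. The log2 fold change was -0.36 (SE 0.10, 95% interval -0.56 to -0.15), a difference of -21.9%, with an edgeR p of 0.00098 and an adjusted p of 0.056. That adjusted p was 0.39 without inhibitor NC replicate 1 and 0.049 without inhibitor NC replicate 3. With all libraries kept, it was 0.18 and 0.17 under the 2 stricter filters on low counts and 0.010 with the replicate number as a block. Whether TRPC1 passed the threshold therefore turned on single libraries and on the processing.

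ATP11B (ENSBTAG00000000290) had 1857 ± 64.6 scaled counts in the inhibitor NC cells and 1643 ± 161 in the miR-375 inhibitor cells (SD, n = 3), without overlap. Its log2 fold change was -0.18 (SE 0.06), with an edgeR p of 0.0068 and an adjusted p of 0.18. The treated libraries had 1643, 1481 and 1803 scaled counts, and the controls 1819, 1821 and 1932. Without miR-375 inhibitor replicate 2 the log2 fold change of ATP11B was -0.11. ATP13A3 (ENSBTAG00000013204), with 3660 ± 354 and 3353 ± 402 scaled counts (SD, n = 3), had overlapping groups, a log2 fold change of -0.13 (SE 0.06) and an edgeR adjusted p of 0.46. The value for ATP13A3 was -0.03 without miR-375 inhibitor replicate 2 and -0.05 without inhibitor NC replicate 3. ATP2C1 had -0.11 (SE 0.06) with an edgeR adjusted p of 0.50 and ATP13A4 had -0.03. All 5 expressed P-type ATPases among the members had log2 fold changes below 0, with a median of -0.11. Of all expressed genes, 50.4% were below 0. No member pump passed the test. The sign of ATP13A4 turned in 3 of the 6 fits with a library left out, and the signs of the other 4 pumps did not turn. Summed over the 7 member pumps, the level was 548 ± 25.4 CPM in the inhibitor NC cells and 501 ± 40.8 CPM in the miR-375 inhibitor cells (SD, n = 3). ATP7A, a P-type ATPase whose symbol is outside the rule, passed in the main fit and is described below.

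SLCO2A1 (ENSBTAG00000001324), the prostaglandin transporter, had 521 ± 64.8 scaled counts against 447 ± 40.7 (SD, n = 3), and the groups overlapped. The log2 fold change was -0.22 (SE 0.09), with an edgeR p of 0.018 and an adjusted p of 0.30. Without inhibitor NC replicate 3 it was -0.30 with an adjusted p of 0.035, and without inhibitor NC replicate 1 it was -0.12 with an adjusted p of 0.81. Among the mitochondrial carriers, SLC25A36 (ENSBTAG00000015310) had 1599 ± 133 against 1441 ± 105 scaled counts (SD, n = 3) with overlap, a log2 fold change of -0.15 (SE 0.07) and an edgeR adjusted p of 0.35. It was -0.09 for SLC25A36 without miR-375 inhibitor replicate 2. The ADP/ATP carrier SLC25A5 (ENSBTAG00000046037) had 3965 ± 76.5 against 4274 ± 77.7 scaled counts (SD, n = 3), and all 3 treated libraries were above the controls. Its difference was 7.81%, a log2 fold change of 0.11 (SE 0.05) with an edgeR adjusted p of 0.41.

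SLC9A9, with the largest fold change among the expressed members, had 27.6 ± 5.63 scaled counts against 18.2 ± 1.51 (SD, n = 3), which gave a log2 fold change of -0.59 (SE 0.31) and an edgeR adjusted p of 0.50. The V-ATPase subunits had 0.06 for ATP6V1A and 0.13 for ATP6AP1, and the 4 expressed sugar transporters had 0.01 to 0.16, the last for SLC35A2 with an edgeR adjusted p of 0.56. Log2 fold changes of the 3 expressed potassium channel genes were 0.13 to 0.21, those of the chloride proteins 0.26 for CLCN5 and 0.14 for CLCN2, and that of GABRE -0.06 with a 95% interval of -0.36 to 0.25.

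**Figure D4:**
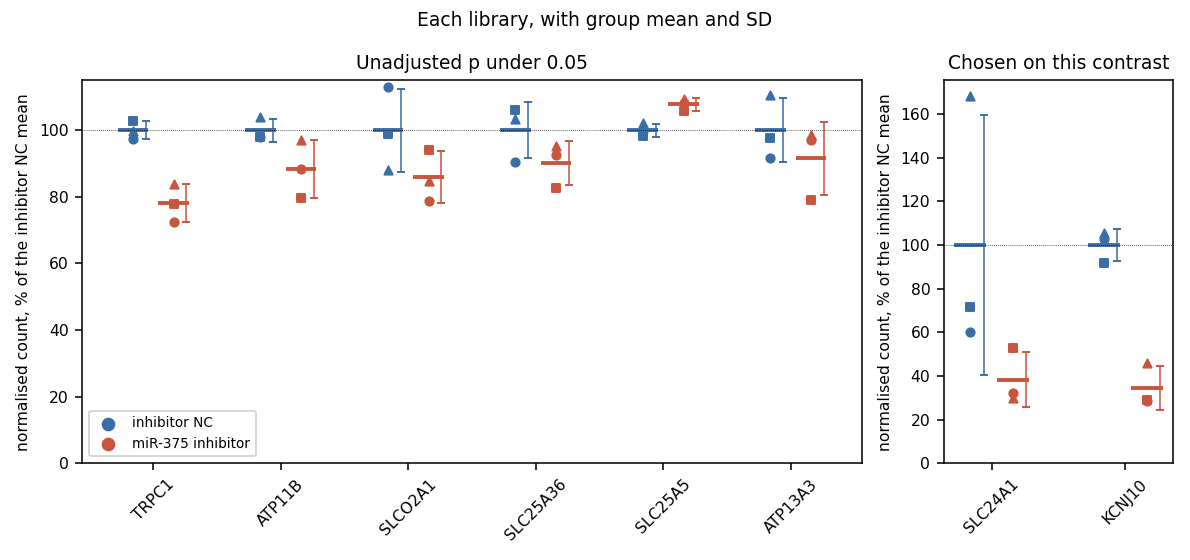
Scaled counts as a percentage of the inhibitor NC mean (y axis) in each library, for 6 members with an unadjusted p under 0.05 (left) and for the 2 members chosen on this contrast (right), with group means and SD (n = 3). TRPC1, ATP11B and SLC25A5 show groups without overlap on the left, while SLCO2A1, SLC25A36 and ATP13A3 overlap.

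KCNJ10 (ENSBTAG00000002414), an inwardly rectifying potassium channel known from glia, and SLC24A1 (ENSBTAG00000025826), a sodium/calcium-potassium exchanger known from rod photoreceptors, were members only because the study listed them for their difference between these groups. KCNJ10 had 14, 14 and 16 counts with the inhibitor NC and 4, 4 and 7 with the miR-375 inhibitor, or -1.50 as a log2 fold change (SE 0.51). SLC24A1 had 9, 12 and 28 counts against 5, 8 and 5, or -1.39 as a log2 fold change (SE 0.49). In both the groups did not overlap, where 7.09% of all genes tested were lower without overlap, and nothing is read from this. The value of SLC24A1 leaned on inhibitor NC replicate 3, and without that library its log2 fold change was -0.78. Both genes were low by the limit used here, with at most 28 counts in a library.

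The precision of the fold changes went with the count. For the 8 expressed members with a mean under 50 counts, the median SE of the log2 fold change was 0.32, and the 95% interval reached a factor of 1.55 to either side of the estimate. This group held the 3 potassium channel genes, CLCN5, CLCN2, SLC9A9, SLC9C1 and SLC25A53. With 50 to 200 counts the factor was 1.26 (5 members), with 200 to 1000 counts 1.13 (11 members), and above that 1.09 (11 members). These factors are medians within each range of counts and not limits of detection. For the 22 members at the floor no fold change is given.

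**Figure D5:**
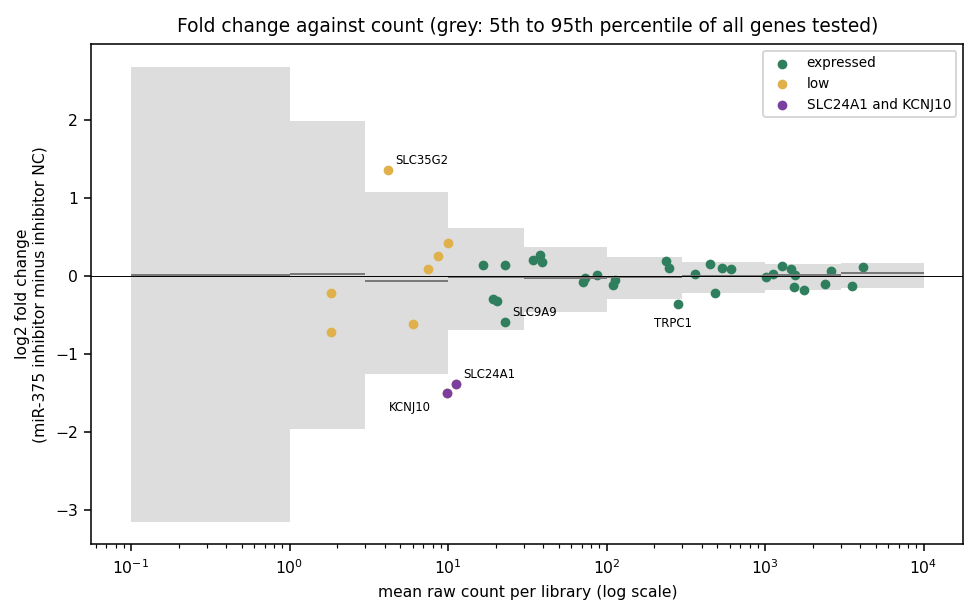
Log2 fold change (y axis) of expressed and low members against its mean raw count per library (x axis, log scale), with the grey band from the 5th to the 95th percentile of all genes tested in the same range of counts. KCNJ10 and SLC24A1, at -1.50 and -1.39, were chosen on this contrast, and TRPC1 lies at -0.36.

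Other genes related to membrane transport, whose symbols do not begin with the chosen letters, were read from a list of 31 genes, all paired with an identifier. The list was broad, and some of its genes, such as the claudins of tight junctions, are not transporters. Of the 31 genes, 11 were expressed and 20 were tested. ATP7A and CLDN1, 2 of the 20, had an adjusted p under 0.05, both lower in the miR-375 inhibitor cells, beside 1.2% of all genes tested. The list was chosen with earlier results of these data known, so its shares, here and below, are not read as an excess. ATP7A, a copper-transporting P-type ATPase, had 905, 982 and 1120 counts with the inhibitor NC and 718, 617 and 931 with the miR-375 inhibitor. Scaled, these were 991 ± 73.6 and 759 ± 122 (SD, n = 3), which gave a log2 fold change of -0.38 (SE 0.08) with an edgeR adjusted p of 0.0026. The call held in 8 of 11 alternatives and was lost without inhibitor NC replicate 1 (adjusted p 0.35) and under both stricter filters on low counts (0.18 in each). CLDN1, a tight junction protein that was also among the epithelial markers, had 200, 182 and 160 counts against 129, 114 and 126. It fell from 180 ± 30.3 to 124 ± 7.36 scaled counts (SD, n = 3), which gave a log2 fold change of -0.53 (SE 0.13) with an edgeR adjusted p of 0.022. This held in 4 of the 10 alternatives that gave an adjusted p, which was 0.49 without inhibitor NC replicate 1 0.056 without inhibitor NC replicate 2, 0.065 and 0.097 without miR-375 inhibitor replicates 1 and 3, and 0.18 under each stricter filter. At an unadjusted p under 0.05 in edgeR, 1 of the 20 tested genes was higher and 4 were lower, beside 4.67% and 5.96% of all genes tested. OTOP3, a proton channel, is among the 4 only by choice, since it came from the list of genes chosen for their difference. The higher gene was TFRC, the transferrin receptor, with 340, 490 and 723 counts against 614, 474 and 873, overlapping groups, a log2 fold change of 0.37 and an edgeR adjusted p of 0.14. Its log2 fold change ran from 0.15 to 0.66 when each library was left out. TFRC passed in 3 of 11 alternatives, with an edgeR adjusted p of 2.4e-10 without inhibitor NC replicate 3, 0.00011 without miR-375 inhibitor replicate 2 and 7.9e-05 with the replicate number as a block. Among the lower genes, GRIA3, a glutamate receptor subunit, had 660, 698 and 725 counts against 605, 562 and 636 and an edgeR adjusted p of 0.33, and OTOP3 had 6, 3 and 5 against 1, 0 and 0.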

How the data were processed

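The deposited files hold raw counts per gene, made by the authors from clean reads with HISAT2 and featureCounts of the Subread package per the labels, with UMD3.1 as the genome build. Tool versions, strand setting and treatment of reads with several matches are not given in the sources used here. Reads of overlapping, antisense or near-identical genes can therefore not be told apart. The libraries were made from mRNA enriched with oligo(dT). Coordinates are left out, since the build could not be checked.

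Symbols came from the study's gene lists, and all 66 were in the RefSeq gene list of ARS-UCD2.0, which gave the gene order. The comparison used the quasi-likelihood F test of edgeR 4.0.16 (R 4.3.3) after TMM scaling, with no block. It covered the 20755 genes that had 1 count or more in some library, and p-values were adjusted over them by Benjamini-Hochberg. The SE was the size of the log2 fold change divided by the square root of F, and the 95% interval used the t quantile with 55.4 degrees of freedom. Scaled counts are counts divided by the TMM-adjusted library size and brought to a common depth. CPM are per 1000000 counts of the same TMM-adjusted library size, except for the floors, which are per 1000000 counts on genes. Floors cover counting error only, while the intervals rest on the spread between libraries in the edgeR fit. That spread was estimated mostly across all genes (51.4 prior degrees of freedom). For a gene whose own libraries spread widely, the SE can be smaller than those libraries alone would give. Summaries were made in Python 3.11.15.

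The alternatives were DESeq2 1.42.0, edgeR with DESeq2's size factors, a minimum of 10 counts in total per gene, the filterByExpr filter, the replicate number as a block, and leaving out each library. Scripts were first tested on simulated data. The counts are given in every library for members with an unadjusted p under 0.05, the 12 members with the highest mean CPM, the highest of each role, those next to the limit for expressed, and SLC24A1 and KCNJ10. A few members enter the counts of genes but are not reported here by name or value. Some others are named with their counts after their values were seen. The members and lists were chosen with earlier results of these data known. A comparison of levels per coding length and a search of protein sequences, both planned, were not made, because no sequences were at hand. Authors' fold changes and p-values were not used. Replicates within a group differed by more than sampling noise, which does not show how separate the cultures were. Each library was counted as 1 replicate.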

Additional observations from a re-analysis of the deposited data

How the results depend on the processing

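DESeq2 gave TRPC1 no adjusted p. The number of members with an adjusted p under 0.05 was 0 in edgeR and under DESeq2, its size factors and both filters on low counts. It ranged from 0 to 2 when each library was left out, with TRPC1 and SLCO2A1 passing without inhibitor NC replicate 3. With a replicate block it was 2, TRPC1 (adjusted p 0.010) and ATP11B (0.023). Whether same-numbered libraries share more than a number is not stated. Their deviations correlated at -0.06, 0.15 and 0.34, and not every library correlated best with its own number. So few correlations cannot decide whether the libraries were paired. The number of members with an unadjusted p under 0.05 was 7, 4 with DESeq2 and 4 to 8 when each library was left out. The number whose groups do not overlap was 8, and 11 to 16 with a library left out, where fewer samples make overlap rarer. No member with an unadjusted p under 0.05 changed direction, while 12 of the 35 expressed members changed sign with some library left out, ATP13A4, ABCC5 and GABRE among them. The log2 fold change of KCNJ10 ranged from -1.77 to -1.38. Over all genes, 350 had an adjusted p under 0.05 in edgeR, 74 with DESeq2, 840 with the replicate block, 0 with either filter (1972 and 1844 at an unadjusted p under 0.05), 0 without inhibitor NC replicate 1 (1543 unadjusted) and 756 without inhibitor NC replicate 3. The causes were not tested. Among the expressed members, those with a mean under 50 counts had the widest intervals.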
